A study of Rattus norvegicus with 15 samples.

Results

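The genes described here encode the mitochondrial respiratory chain and the ATP synthase that it drives. Members were the probe sets whose single gene symbol in the platform annotation belonged to the subunit families of NADH dehydrogenase (Nduf), succinate dehydrogenase (Sdha to Sdhd), cytochrome c reductase (Uqcr, Cyc1), cytochrome c (Cycs), cytochrome c oxidase (Cox4 to Cox8) or ATP synthase (Atp5). The rule used names and no measured value. It found 101 of 8740 probe sets, for 55 of the 4736 genes with a probe set of their own symbol, and 93 of them, for 54 genes, were bright enough on enough arrays to be tested.

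RNA came from rat mesenteric arteries, which supply the gut, and was measured on 15 Affymetrix arrays. The strains were SHR, the spontaneously hypertensive rat, whose blood pressure is high from inheritance, and the Wistar Kyoto rat (WKY), its usual comparison strain. From each strain there were control arteries and collateral arteries, the latter made by occluding neighbouring arteries so that the vessel carried more flow. There were 4 arrays of control and 4 of collateral arteries from SHR, and 3 and 4 from WKY, with no other allele or agent named in the labels. The labels give no age or sampling time and do not say that arrays came from separate animals, so p-values rest on a spread between arrays that may be technical.

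The respiratory chain passes electrons from NADH and succinate to oxygen through complexes I to IV, and complexes I, III and IV pump protons out of the mitochondrial matrix. ATP synthase lets the protons return and makes ATP. In arterial smooth muscle, which also relies strongly on glycolysis, the chain supplies ATP and is a source of reactive oxygen species. Nuclear respiratory factor 1 (NRF-1) and the ETS-family factor GABP, also called NRF-2, are known regulators of many of its nuclear genes.

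The sequences before the transcription start are shown for 4 of the genes with a difference at an unadjusted p under 0.05. These were Cox8a, Ndufs8 and Atp5f1e for collateral against control arteries and Sdha for the strains, and none passed the adjusted test. The sequences are the 250 bases before the start in RefSeq, build GRCr8, read 5′ to 3′ on the gene's strand. Sdha is at chr1:30764303-30764552 on the plus strand, Cox8a at chr1:213833624-213833873 on the minus strand, Ndufs8 at chr1:210573699-210573948 on the minus strand and Atp5f1e at chr3:183680173-183680422 on the minus strand. Capitals mark matches, on either strand, to the NRF-1 motif, searched as GCGCA, any base and GCGC, in Sdha and to the ETS motif CCGGAAG in Cox8a and Ndufs8.
Sdha: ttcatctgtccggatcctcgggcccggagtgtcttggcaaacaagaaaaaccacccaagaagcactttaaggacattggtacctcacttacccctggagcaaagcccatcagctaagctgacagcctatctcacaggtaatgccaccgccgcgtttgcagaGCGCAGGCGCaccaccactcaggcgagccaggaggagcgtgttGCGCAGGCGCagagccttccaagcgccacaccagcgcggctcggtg
Cox8a: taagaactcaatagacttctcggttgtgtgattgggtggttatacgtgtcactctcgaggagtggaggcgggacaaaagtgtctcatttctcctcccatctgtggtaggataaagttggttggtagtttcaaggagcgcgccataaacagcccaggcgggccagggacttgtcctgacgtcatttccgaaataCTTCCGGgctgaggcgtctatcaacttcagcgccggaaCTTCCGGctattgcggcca
Ndufs8: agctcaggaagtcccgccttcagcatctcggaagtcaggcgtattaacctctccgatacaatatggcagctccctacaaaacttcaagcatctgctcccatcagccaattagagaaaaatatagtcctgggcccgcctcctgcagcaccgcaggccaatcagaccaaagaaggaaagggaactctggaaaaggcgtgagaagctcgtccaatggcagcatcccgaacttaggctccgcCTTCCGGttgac
Atp5f1e: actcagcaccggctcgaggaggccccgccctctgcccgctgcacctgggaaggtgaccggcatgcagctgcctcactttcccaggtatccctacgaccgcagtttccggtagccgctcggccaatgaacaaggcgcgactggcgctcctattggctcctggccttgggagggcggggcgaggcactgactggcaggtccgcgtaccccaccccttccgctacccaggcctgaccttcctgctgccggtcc
Sdha held 2 NRF-1 matches, from 89 to 80 and from 46 to 37 bases before the start. Cox8a held 2 ETS matches, from 57 to 51 and from 19 to 13 bases before it, and Ndufs8 held 1, from 12 to 6 bases before it. The Atp5f1e window held neither string, and in these 4 windows no match to one motif overlapped a match to the other. All 55 member genes were matched to the RefSeq gene table and 46 had a promoter sequence. Of these, 5 held the NRF-1 string (10.9%), against 4.17% of 27457 rat promoters of the same length, and 8 held the ETS string (17.4%), against 7.74%. A match describes the letters only.

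Most members were among the brighter probe sets. For 46 of the 55 genes the brightest probe set had a median rank on its arrays at or above the 80th percentile. The 9 dimmer genes were Cox5a, Cox6a2, Cox6c, Cox6c-ps1, Cox8b, Ndufa4l2, Ndufaf3, Ndufb1 and Ndufs1, and Cox6c-ps1 was the gene that was not tested. Complex I had 40 probe sets for 24 genes, complex II 1 probe set for Sdha, complex III 7 for 4 genes, complex IV 25 for 12 genes and ATP synthase 13 for 9 genes. A further 15 probe sets belonged to 5 associated genes, namely the assembly factor Ndufaf3, the Ndufa4 paralog Ndufa4l2, the ATP synthase inhibitor Atp5if1, the supercomplex factor Cox7a2l and the pseudogene Cox6c-ps1. Ndufa4 was counted with complex IV. Cycs, Sdhb, Sdhc and Sdhd were not analysed here.

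The array SHR collateral 3 stood apart, with a Spearman correlation of at most 0.657 with any other array and a 20th percentile of signal of 171.2, against 43.4 to 83.3 elsewhere, so counts, medians and differences at an unadjusted p under 0.05 are also given without it where that moved them by over 1.5 times. The member genes had a median log2 deviation of -0.43 from their 15-array means on this array, and 1887 other bright probe sets, those with a mean log2 signal of 10 or more, had -0.46. By complex the median was -0.65 in complex I, -0.48 in complex III, -0.68 in ATP synthase and -0.06 in complex IV. The 6 measured smooth muscle markers of 8 listed, Acta2, Actg2, Cnn1, Des, Myh11 and Tagln, were at or above the 40th percentile on every array, and their summed signal was 92049 on SHR collateral 3 against 178120 to 479410 on the others. The 9 control probe sets for spiked-in RNA averaged a signal of 354580 on SHR collateral 3, against 26654 to 130880 on the others. Over all tested probe sets the median deviation on that array was 0.48. In whole arteries, fewer cells of a type and less RNA per cell cannot be told apart. The part of this array's hybridization and scaling in its low values was not tested.

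**Figure D1:**
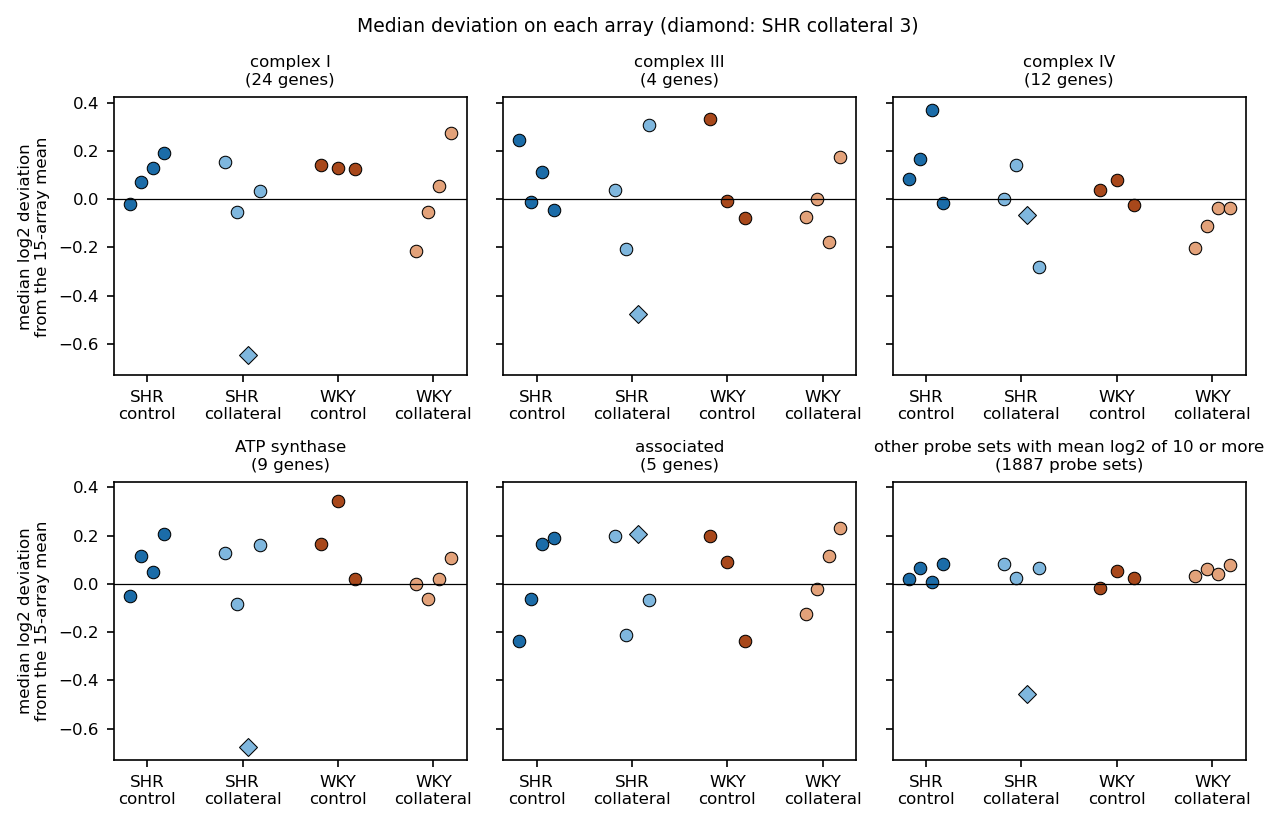
Median log2 deviation from the 15-array mean (vertical axis) on each array, by group, for complexes I, III and IV, ATP synthase, the associated genes and 1887 other bright probe sets; each point is 1 array. The diamond, SHR collateral 3, is lowest in complex I (-0.65), complex III (-0.48), ATP synthase (-0.68) and the other bright probe sets (-0.46), and lies among the other arrays in complex IV (-0.06).

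Collateral against control arteries asks what the arteries carrying added flow express differently, within each strain and as the mean of both. No member passed limma's test at an adjusted p of 0.05 in SHR, in WKY, in the difference between the strains' changes or in their mean, and neither did any of the 6512 probe sets tested (0% in each). In the mean of both strains, 5 members were lower and 0 higher at an unadjusted p under 0.05, where 2.58% of all tested probe sets were lower and 2.53% higher. When SHR collateral 3 was left out, the members were 7 lower and 0 higher, against 3.32% and 3.44%. With all arrays, the 5 probe sets were of Cox8a (2 of its 4 tested), Atp5f1e, Ndufs8 and Ndufb10, with log2 differences between -0.68 and -0.36. In SHR alone, 5 members were lower and 1 higher, against 1.69% and 2.07% of all tested, and without SHR collateral 3 the members were 3 and 1, against 2.06% and 1.49%. In WKY alone the members numbered 0 in both directions, against 1.41% lower and 1.75% higher. Leaving that array out also changes the pooled spread, and the WKY members were then 2 lower and 0 higher, against 2.15% and 2.78%, both of them Cox8a probe sets.

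In complex I, the proton pump that takes electrons from NADH, Ndufs8, an iron-sulphur subunit, is described by its brightest probe set, rc_AA799479_g_at. In SHR its log2 signal was 11.55, 11.61, 11.99 and 11.52 on control arrays and 10.97, 11.04, 9.43 and 11.33 on collateral arrays. The WKY values were 11.46, 11.26 and 11.50 on control arrays and 11.03, 11.15, 10.33 and 11.61 on collateral arrays. The SHR groups did not overlap, with SHR collateral 3 lowest of all 15, while 1 WKY collateral array was above all WKY controls. The difference in SHR was -0.98 ± 0.36 (SE; limma, adjusted p = 0.949), and -0.56 without SHR collateral 3 (adjusted p = 0.9995). As the mean of both strains it was -0.68 ± 0.26 (adjusted p = 0.885), or 1.60-fold lower, and -0.47 without that array.

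The other Ndufs8 probe sets did not show this. AA685112_at gave a mean difference of 0.36 ± 0.40 and rc_AA851379_at one of -0.09 ± 0.36, and rc_AA799479_at was below the filter. Their median ranks on the arrays were at the 53.4th, 69.5th and 19.5th percentile, against the 88.6th for the brightest.

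Ndufv3, a small accessory subunit beside the NADH-binding site, was 12.42, 12.72, 12.12 and 12.61 in SHR control and 12.25, 12.20, 9.92 and 11.81 in SHR collateral by AB000098_g_at. The groups overlapped, and 1 array, SHR collateral 3, was more than 1 log2 unit under every other. Its difference in SHR was -0.92 ± 0.40 (limma, adjusted p = 0.949), and -0.38 without that array. In WKY it was 12.57 ± 0.19 (SD, n = 3) in control and 12.52 ± 0.48 (SD, n = 4) in collateral arteries.

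Ndufb10, an accessory subunit of the membrane arm, was 11.34 ± 0.25 (SD, n = 4) in SHR control and 10.83 ± 0.37 (SD, n = 4) in SHR collateral arteries, and 11.40 ± 0.34 (n = 3) and 11.02 ± 0.33 (n = 4) in WKY. The mean difference was -0.45 ± 0.19 (limma, adjusted p = 0.940), and -0.38 without SHR collateral 3. Ndufb8, another accessory subunit of that arm, had 13.46 ± 0.37 and 12.92 ± 0.58 in SHR control and collateral arteries by rc_AA851403_g_at, and 13.61 ± 0.12 and 13.44 ± 0.37 in WKY. Its SHR difference was -0.54 ± 0.29, and -0.26 without SHR collateral 3, where its value was 12.08. Over the 24 genes of complex I, with the brightest probe set for each, the median mean difference was -0.11 with 16 below 0, and 0.01 with 12 below 0 without SHR collateral 3.

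Complex II, which is also an enzyme of the citric acid cycle, was represented by its flavoprotein Sdha alone, with a mean collateral difference of -0.21 ± 0.27 and 0.015 without SHR collateral 3.

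In complex III, which passes electrons from ubiquinol to cytochrome c, all 4 genes had lower means in collateral than in control arteries in both strains, with medians of -0.17 in SHR and -0.12 in WKY. In SHR the median was 0.06 without SHR collateral 3. Uqcr11, a small accessory subunit, was 12.74, 12.86, 12.49 and 12.56 on SHR control arrays and 12.28, 12.41, 12.29 and 12.23 on SHR collateral arrays by rc_AA892462_at. WKY arrays had 12.46, 12.65 and 12.60 on control and 12.35, 12.45, 12.38 and 12.35 on collateral arrays. Within each strain the groups did not overlap, and SHR collateral 3 lay inside its group. The difference was -0.36 ± 0.19 in SHR, -0.19 ± 0.21 in WKY and -0.27 ± 0.14 as the mean of both (limma, adjusted p between 0.949 and 1.00). Its other probe set, rc_AA926137_s_at, gave a mean of -0.34 ± 0.18. Cyc1, the cytochrome c1 subunit, had a mean difference of -0.11 ± 0.16.

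In complex IV, which reduces oxygen to water, Cox8a is the widely expressed form of a small subunit. By M28255_s_at its log2 signal was 14.77, 15.06, 15.15 and 14.74 on SHR control arrays and 14.73, 14.45, 14.08 and 14.46 on SHR collateral arrays. WKY arrays gave 14.96, 15.33 and 14.99 on control and 14.55, 14.54, 14.67 and 14.66 on collateral arrays. Groups did not overlap in either strain, although the closest SHR values, 14.74 and 14.73, were almost equal. The difference was -0.50 ± 0.22 in SHR and -0.49 ± 0.24 in WKY. As the mean of both it was -0.49 ± 0.16, or 1.41-fold lower (limma, unadjusted p = 0.00719, adjusted p = 0.807), and -0.44 without SHR collateral 3 (adjusted p = 0.517).

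The other 3 Cox8a probe sets gave mean differences of -0.36 ± 0.17 for rc_AI102505_g_at, -0.24 ± 0.15 for rc_AI102505_at and -0.14 ± 0.22 for L48209_s_at. All 4 were below 0 in this comparison. In WKY the groups did not overlap by rc_AI102505_g_at either, at 13.58 ± 0.09 (SD, n = 3) in control and 13.10 ± 0.22 (SD, n = 4) in collateral arteries.

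Over the 12 genes of complex IV the median difference was -0.23 in SHR, -0.16 in WKY and -0.19 as the mean of both. Without SHR collateral 3 the SHR median was -0.20 and the mean -0.18. As the mean of both strains, 8 genes were below 0 with all arrays and 10 without that array. The sign of these 3 medians was the same under quantile normalization, equal array medians, an added constant and array weights, whereas the SHR median of complexes I and III changed sign under array weights and without SHR collateral 3. Over all tested probe sets the median was 0.06 in SHR, 0.003 in WKY and 0.04 as the mean. Over the 1887 other bright probe sets it was -0.12, 0.03 and -0.04. Without SHR collateral 3 the SHR median was -0.005 for both sets, and the mean was 0.004 and 0.02. Cox4i1, the common form of the largest nuclear-encoded subunit, had a mean difference of -0.22 ± 0.21 by its brightest probe set, rc_AA818226_s_at.

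In ATP synthase, Atp5f1e, the epsilon subunit of the central stalk, was 13.55, 13.88, 13.98 and 13.84 on SHR control arrays and 13.15, 13.62, 13.05 and 13.14 on SHR collateral arrays by rc_AI171844_g_at. The WKY arrays had 13.40, 13.85 and 13.54 on control and 13.09, 13.29, 13.38 and 13.27 on collateral arrays. The WKY groups did not overlap, and in SHR 1 collateral array was above the lowest control. The mean difference was -0.46 ± 0.16, or 1.37-fold lower (limma, unadjusted p = 0.00914, adjusted p = 0.807), and -0.42 without SHR collateral 3 (adjusted p = 0.530). Its dimmer probe set rc_AI171844_at gave -0.22 ± 0.23, and -0.34 without that array.

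Atp5po, a subunit of the peripheral stalk, was 14.47, 14.95, 14.74 and 14.89 in SHR control and 14.61, 14.45, 12.59 and 14.28 in SHR collateral arteries by D13127_g_at. The groups overlapped, and SHR collateral 3 was far below the rest. The difference in SHR was -0.78 ± 0.34 (limma, adjusted p = 0.949), and -0.32 without that array. Atp5f1b, the catalytic beta subunit, likewise had its lowest value there, 12.41, against 13.31 to 14.15 on the other 14 arrays. Over the 9 ATP synthase genes the median in SHR was -0.30, and -0.10 without that array, beside -0.13 in WKY.

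**Figure D2:**
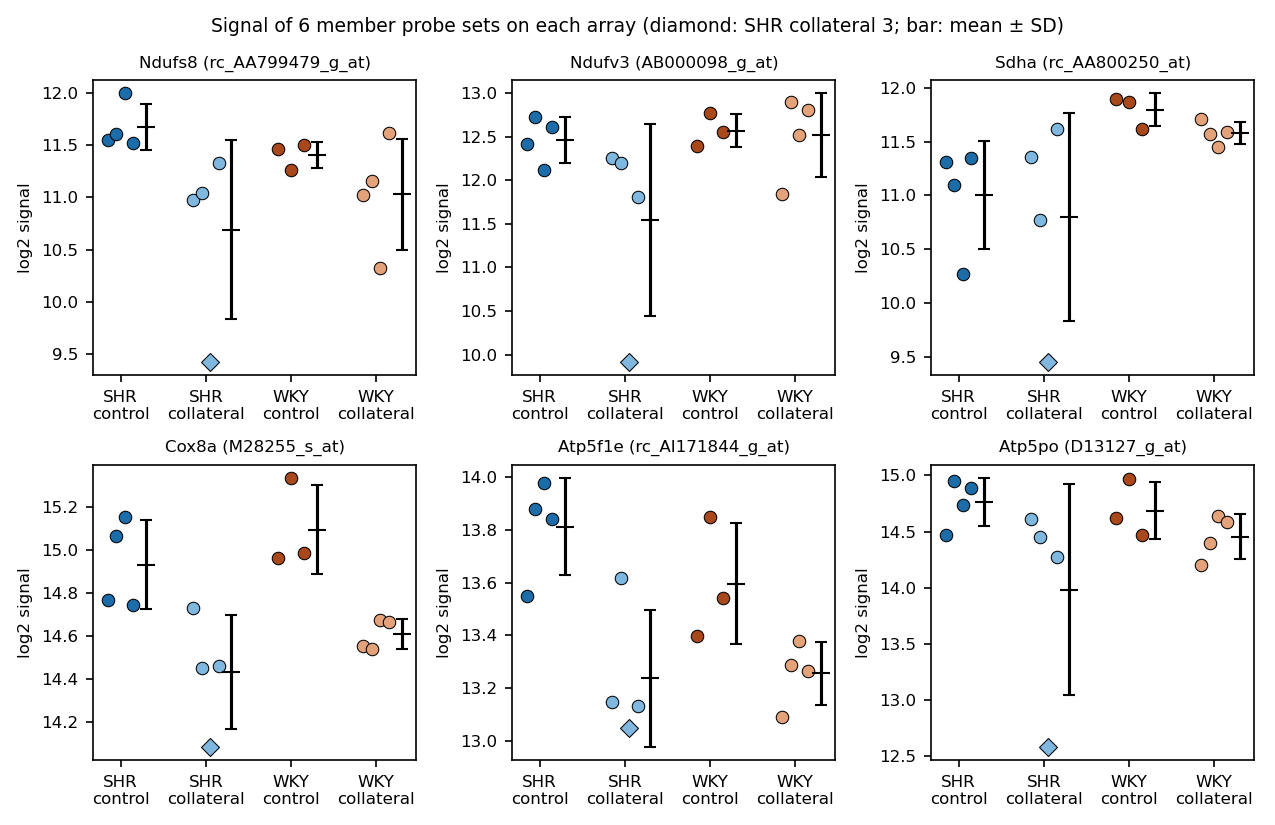
Log2 signal (vertical axis) of 6 member probe sets on each array by group; points are arrays, the diamond is SHR collateral 3 and the bars are the group mean ± SD (n = 4, 4, 3 and 4). Cox8a and Atp5f1e were lower on most collateral arrays of both strains with SHR collateral 3 the lowest of its group, and Ndufs8, Ndufv3, Sdha and Atp5po each had that array below all 14 others (9.43, 9.92, 9.45 and 12.59).

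Among the associated genes, Ndufa4l2, a paralog of Ndufa4 known as a hypoxia-inducible gene, was the single member higher in SHR collateral arteries at an unadjusted p under 0.05. By AA684960_f_at it was 7.84, 7.79, 9.23 and 8.64 on SHR control arrays and 9.14, 10.15, 11.03 and 9.25 on SHR collateral arrays. WKY values were 8.93, 9.17 and 9.57 on control and 9.03, 9.46, 8.31 and 9.16 on collateral arrays. The groups overlapped in both strains, and SHR collateral 3 was the highest of all 15. The difference in SHR was 1.52 ± 0.45 (limma, unadjusted p = 0.00344, adjusted p = 0.949), and 1.14 without that array (adjusted p = 0.9995). The probe sets AA685376_f_at and AA684929_f_at gave 0.95 ± 0.71 and 0.19 ± 0.34 for the same comparison, and 0.24 and -0.09 without that array.

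The test of whether SHR and WKY changed differently gave 2 members whose change was more positive in SHR and 0 for which it was more negative at an unadjusted p under 0.05, against 1.23% and 0.676% of all tested. Ndufa4l2 had a difference of changes of 1.75 ± 0.66 and Ndufs1, an iron-sulphur subunit of complex I, one of 2.41 ± 1.11 by AA686031_at (limma, adjusted p = 1.00 for both). Ndufs1 was dim, with a median rank at the 37.5th percentile, and its values ran from 5.47 to 8.89 in SHR and from 5.20 to 8.12 in WKY. Without SHR collateral 3 the values were 1.37 for Ndufa4l2 and 1.93 for Ndufs1. The members at an unadjusted p under 0.05 were then Ndufa4l2 and, more negative in SHR, Cox8b at -1.32, against 0.584% and 1.11% of all tested.

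By groups that did not overlap, 5 of the 93 tested members were lower and 0 higher in SHR collateral than in SHR control arteries, against 0.814% and 0.906% of all tested probe sets. Without SHR collateral 3 the members were 6 and 0, against 2.27% and 1.63%. In WKY, 7 members were lower and 0 higher, against 3.09% and 3.61%. Cox8a by M28255_s_at and Uqcr11 by rc_AA892462_at were lower without overlap in both strains. The other SHR members were Ndufs8, Ndufb2 and Atp5po (D13127_at), and the other WKY members Cox8a (rc_AI102505_g_at), Atp5f1e, Ndufb8 (rc_AA964320_at), Cox6b1 (rc_AI104035_s_at) and Ndufs7.

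SHR against WKY asks how the strains differ in the same vessel type. No member passed limma's test at an adjusted p of 0.05 in control arteries, in collateral arteries or in the mean of both, against 0.0307%, 0% and 0.891% of all tested. At an unadjusted p under 0.05 the mean of both vessel types had 4 members higher in SHR and 3 lower, against 6.73% and 5.13% of all tested. Control arteries had 1 higher and 0 lower, against 3.72% and 2.75%, and collateral arteries 4 higher and 2 lower, against 4.01% and 3.61%. The members' shares were below the background in control arteries and in the mean, and near or below it in collateral arteries. With SHR collateral 3 left out, the members higher and lower in SHR were 6 and 3 in the mean, against 6.91% and 5.25%. They were 3 and 2 in control arteries, against 5.16% and 4.16%, and 2 and 0 in collateral arteries, against 2.63% and 2.58%. With all arrays, the 4 members that were higher in the mean belonged to complex IV, against 3 of the 6 without that array, and the 3 lower ones were Sdha, Ndufb8 and Atp5pb.

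Sdha, the flavoprotein of complex II, had the smallest p of any member between the strains. By rc_AA800250_at it was 11.31, 11.10, 10.27 and 11.35 on SHR control arrays and 11.36, 10.78, 9.45 and 11.62 on SHR collateral arrays. It was 11.90, 11.87 and 11.62 on WKY control arrays and 11.71, 11.57, 11.45 and 11.59 on WKY collateral arrays. Control arteries of the strains did not overlap, and of the SHR collateral arrays 1 was above some WKY arrays and SHR collateral 3 was lowest of all. The mean strain difference was -0.78 ± 0.27, or 1.72-fold lower in SHR (limma, unadjusted p = 0.0100, adjusted p = 0.229). Without SHR collateral 3 it was -0.56 (adjusted p = 0.185), with -0.79 in control and -0.33 in collateral arteries.

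Ndufb8, an accessory subunit of complex I, was lower in SHR by all 4 of its tested probe sets, with mean differences from -0.63 to -0.24. By rc_AA964320_at the difference was -0.47 ± 0.21 (limma, adjusted p = 0.392), and -0.30 without SHR collateral 3. Atp5pb, the b subunit of the ATP synthase stalk, was 12.90 ± 0.30 (SD, n = 4) in SHR control, 12.63 ± 1.20 (n = 4) in SHR collateral, 13.39 ± 0.27 (n = 3) in WKY control and 13.43 ± 0.26 (n = 4) in WKY collateral arteries. Its strain difference was -0.65 ± 0.30 (limma, adjusted p = 0.407), and -0.36 without that array, where its value was 10.91.

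In complex IV, 10 of the 12 genes had a higher mean in SHR, with a median difference of 0.14, and 9 of 12 with a median of 0.16 without SHR collateral 3. In control arteries, which that array does not enter, the median was 0.13 with 7 of 12 above 0. The mean over both vessel types was above 0 under every scaling tried, between 0.02 and 0.20, but in collateral arteries the median was 0.08 and became -0.12 with equal array medians. The same alternative moved the median over all tested probe sets in collateral arteries from 0.12 to -0.08, and in the mean of both vessel types from 0.07 to -0.05. In the other complexes the median mean difference was -0.11 in complex I, -0.005 in complex III and -0.07 in ATP synthase, and -0.01, 0.03 and -0.004 without SHR collateral 3.

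Cox4i1 by X54081mRNA_i_at was 12.19, 11.59, 12.10 and 10.84 on SHR control arrays and 11.21, 12.15, 11.84 and 10.96 on SHR collateral arrays. It was 11.17, 10.68 and 10.89 on WKY control and 10.98, 11.01, 10.89 and 11.53 on WKY collateral arrays. The strains overlapped in both vessel types, with 5 of the 8 SHR arrays above every WKY array. The mean difference was 0.60 ± 0.24 (limma, adjusted p = 0.304), and its probe sets rc_AA818226_s_at and J05425cds_s_at gave 0.26 ± 0.21 and 0.22 ± 0.21.

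Cox8a differed between its probe sets in this comparison. L48209_s_at gave 0.56 ± 0.22 (limma, adjusted p = 0.304) and M28255_s_at, the brightest, -0.17 ± 0.16, with 0.24 ± 0.17 and 0.04 ± 0.15 for rc_AI102505_g_at and rc_AI102505_at. Cox6b1, a subunit on the intermembrane side, was higher in SHR by 0.56 ± 0.25 with rc_AA946040_at (limma, adjusted p = 0.392) and by 0.10 with its brighter probe set. Cox5b, the zinc-binding subunit, was 9.08 ± 0.76 (SD, n = 4) in SHR control, 9.70 ± 0.52 (n = 4) in SHR collateral, 8.36 ± 0.72 (n = 3) in WKY control and 7.59 ± 2.35 (n = 4) in WKY collateral arteries by D10952_i_at. Its difference of 1.41 ± 0.59 (limma, adjusted p = 0.345) was 0.83 without WKY collateral 3, where its value was 4.10, and the brighter probe set rc_AI229620_s_at gave -0.18 ± 0.21.

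In collateral arteries alone, the members higher in SHR at an unadjusted p under 0.05 were Cox5b at 2.11 ± 0.80 by D10952_i_at, Cox8a at 0.75 ± 0.30 by L48209_s_at, Uqcrfs1 at 0.82 ± 0.33 by M24542cds_at and Ndufa8 at 0.63 ± 0.29 (limma, adjusted p between 0.558 and 0.647). Without WKY collateral 3 the Cox5b difference was 0.94, and without SHR collateral 3 the Ndufa8 difference was 0.39 and that of Cox8a 0.52 (unadjusted p = 0.0698). Uqcrfs1, the Rieske iron-sulphur protein of complex III, was 9.98, 10.39, 9.59 and 9.94 in SHR and 9.40, 9.05, 8.75 and 9.41 in WKY collateral arteries. These groups did not overlap, and SHR collateral 3 was the lowest SHR value, so the difference was 0.95 without it. The 3 tested probe sets of Uqcrfs1 ran from -0.36 to 0.82 in collateral arteries. In the mean of both vessel types M24542cds_at gave 0.49. The brighter probe sets gave -0.02 ± 0.20 by M24542cds_g_at and -0.17 by rc_AI103911_at in that mean. The members lower in SHR were Ndufv3 at -0.98 ± 0.40 and Sdha at -0.78 ± 0.37, which were -0.43 and -0.33 without SHR collateral 3.

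By groups that did not overlap, 4 members were higher and 4 lower in SHR than in WKY control arteries, against 4.85% and 3.72% of all tested probe sets. In collateral arteries 4 were higher and 0 lower, against 2.07% and 1.55%. Without SHR collateral 3 these were 5 and 0, against 3.38% and 2.56%.

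**Figure D3:**
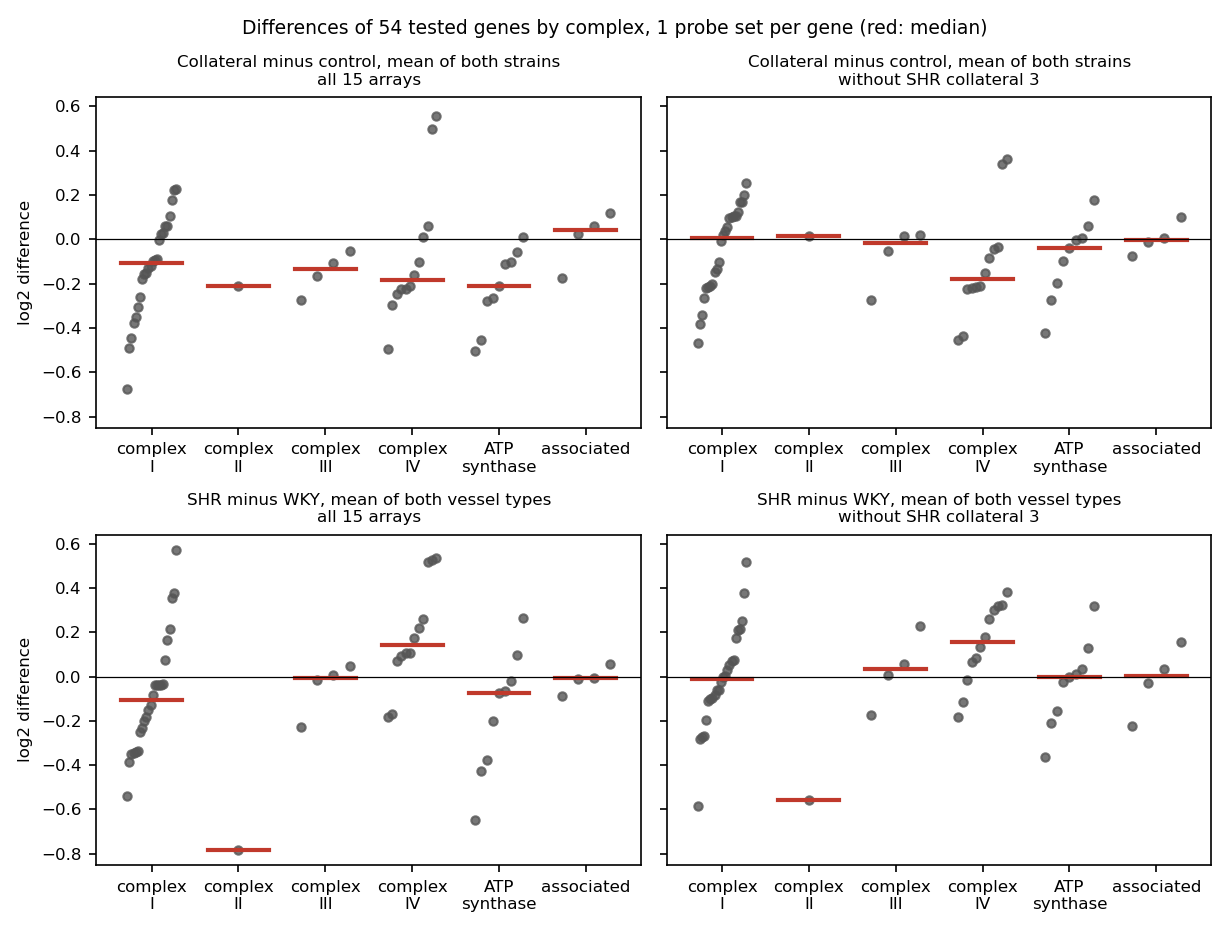
Log2 difference (vertical axis) of the 54 tested genes, 1 probe set per gene, by complex, for collateral against control arteries and for SHR against WKY, with all 15 arrays and without SHR collateral 3; points are genes in order of their value and red lines are medians. Complex IV kept a median of -0.19 and -0.18 for collateral arteries and of 0.14 and 0.16 for SHR, while the ATP synthase median for collateral arteries went from -0.21 to -0.04.

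Marker sums of other cell types were set beside these comparisons. For endothelium, 6 of 9 listed markers were measured (Esm1, Icam2, Kdr, Nos3, Pecam1 and Vwf), and 4 to 6 of them were at or above the 40th percentile on each array. Their summed signal was 2335.9 to 3804.5 in control and 2778.5 to 5728.3 in collateral arteries of SHR, and 4720.9 to 6087.7 and 7427.3 to 11503 in those of WKY. For macrophages, with 5 of 8 measured, the ranges in the same order were 4535.7 to 43768, 16316 to 27949, 2088.7 to 5478.4 and 3339.2 to 18429, and for fat cells, with 6 of 9 measured, 6982.4 to 79726, 8530 to 47544, 8589.9 to 37199 and 4376.2 to 17341. Endothelial sums were lower in SHR than in WKY without overlap in both vessel types, and the macrophage and fat cell sums overlapped between the strains in both. A sum weighs its brightest markers most. The median log2 difference between the strains over the 6 endothelial genes was -0.10 in control and -0.11 in collateral arteries. Without SHR collateral 3 the latter was -0.50. In the mean of both vessel types, 2 were lower and 1 higher in SHR at an unadjusted p under 0.05. Of all tested probe sets 5.13% and 6.73% were. Without SHR collateral 3 the markers were 2 and 0, against 5.25% and 6.91%. Over the 6 fat cell genes the median strain difference in that mean was 1.03, and 0.94 without SHR collateral 3. As the mean of both strains their median collateral difference was -0.69, and -0.75 without that array. In these 2 comparisons 0 of the 5 tested fat cell genes were at an unadjusted p under 0.05. Of all tested probe sets 6.73% and 2.53% were higher, and 5.13% and 2.58% lower.

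By single genes, 2 of the 4 tested macrophage markers passed limma's test at an adjusted p of 0.05. They were higher in SHR in the mean of both vessel types, where 0.891% of all tested probe sets passed. Cd74, the invariant chain of class II antigen presentation, was higher by 3.52 ± 0.61 (adjusted p = 0.00643) and C1qb, a complement component, by 2.21 ± 0.47 (adjusted p = 0.0269). Leaving out SHR collateral 3, these were 3.39 and 2.11, and 2 markers still passed, beside 70 of the 6512 tested probe sets. Of 6 tested endothelial markers 1 passed, Icam2, which was lower in SHR by a log2 difference of -2.79 ± 0.42 (limma, adjusted p = 0.00454). All 7 fibroblast markers listed were measured, and their summed signal was 283740 to 437450 in control and 204460 to 352200 in collateral arteries of SHR, and 291980 to 367160 and 221160 to 289800 in those of WKY, where the groups did not overlap. As the mean of both strains their median collateral difference was -0.53, and -0.48 without SHR collateral 3. At an unadjusted p under 0.05, 3 were lower and 0 higher both ways, namely Dcn, Igfbp6 and Thy1, and 0 passed the adjusted test. Of all tested probe sets 2.58% were lower and 2.53% higher, and 3.32% and 3.44% without SHR collateral 3. The part of these cells in the differences above was not tested.

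Some subunits of complex IV exist as a general and a tissue form, which allows the forms to be described side by side without comparing their levels. Cox4i2, the lung and oxygen-responsive form, was 11.55 ± 0.23 (SD, n = 4) in SHR control, 11.53 ± 0.95 (n = 4) in SHR collateral, 11.60 ± 1.18 (n = 3) in WKY control and 11.04 ± 0.84 (n = 4) in WKY collateral arteries. Cox6a1, the liver form, had a mean collateral difference of -0.16 ± 0.16 and a strain difference of 0.07 ± 0.16 by rc_AI104520_s_at. Cox6a2, the heart and skeletal muscle form, had 0.06 ± 0.47 and 0.09 ± 0.47 by rc_AI171644_s_at, and both turned sign, to -0.22 and -0.18, without SHR collateral 3. The 13 measured striated muscle markers of 14 listed summed to 3473.4 to 7758.1 on all arrays.

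Cox8b, the heart and muscle form of Cox8, was 8.83, 9.17, 9.59 and 9.49 on SHR control and 8.56, 8.33, 10.18 and 8.32 on SHR collateral arrays by U40836mRNA_s_at. In WKY it was 8.73, 8.35 and 7.86 on control and 8.36, 9.15, 9.44 and 8.08 on collateral arrays. In control arteries the strains did not overlap, with SHR higher by 0.96 ± 0.49 (limma, adjusted p = 0.820). In SHR the collateral arrays other than SHR collateral 3 were below all controls, so that the collateral difference was -0.42 ± 0.45 with all arrays and -0.87 without that array (limma, unadjusted p = 0.0413, adjusted p = 0.9995). Its second probe set was below the filter. Cox8b was also listed as a brown fat marker and left out of that list's sum. The 2 brown fat markers measured of the other 4 listed, Ucp1 and Cidea, summed to 1804.2 on SHR collateral 3. On the other arrays the sum was 422.09 to 1098.9. On each array 1 of the 2 was at or above the 40th percentile. The part of such cells in the Cox8b values was not tested. Cox7a1, Cox7a2, Cox6b2 and the ATP synthase c-subunit genes were not analysed here.

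Of the 55 genes, 28 had more than 1 probe set, up to 5 for Ndufa4l2, and 27 had more than 1 that was tested. The signs of the tested probe sets of a gene were opposite for 14 of these 27 in SHR collateral against control, 15 in WKY, 14 in the mean of both strains and 14 in the mean strain difference. All probe sets had 1 sign in the mean strain difference for Ndufb8, Ndufv3 and Atp5pf, which were lower in SHR, and for Cox4i1, Cox6a1, Cox6a2, Cox6b1, Cox6c, Atp5f1d, Atp5f1e, Ndufa6, Ndufb6 and Uqcr11, which were higher. Suffixes s, f, g and i, which the maker gives to probe sets that share sequence with others or hold fewer unique probes, were carried by 17, 7, 13 and 4 of the 101 member probe sets, so signal from related transcripts cannot be told apart from the named gene's for those.

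**Figure D4:**
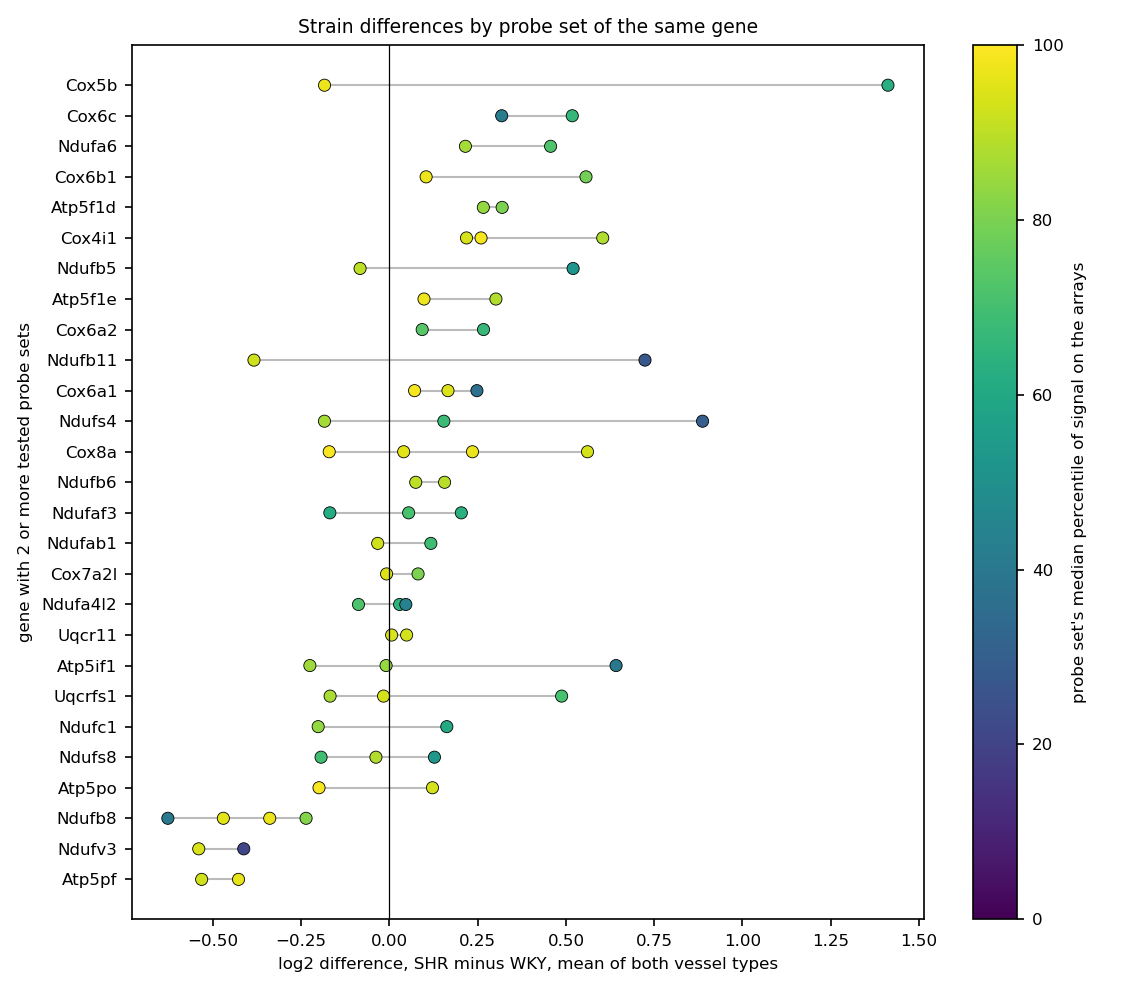
Log2 difference of SHR against WKY, mean of both vessel types (horizontal axis), for each tested probe set of the 27 genes with more than 1, with grey lines joining the probe sets of a gene and the colour giving the probe set's median percentile of signal. Probe sets lay on both sides of 0 for 14 genes, and the widest spread was in Cox5b, from -0.18 by the brighter to 1.41 by the dimmer probe set.

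How members vary together across arrays is given as a description. With each group centred on its mean, the median Pearson correlation between pairs of the 54 tested member genes was 0.18, and 0.14 without SHR collateral 3, beside 0.09 and 0.04 for 1244 other bright genes. The points are the same 15 arrays throughout, which share their hybridization and scaling. The 5 genes outside the members with the highest correlation with the members' mean were Marchf8 (0.91), Nme2 (0.90), Ppid (0.90), Higd1a (0.89) and Igbp1 (0.88), and without SHR collateral 3 these were 0.82, 0.80, 0.79, 0.76 and 0.76.

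Genes of neighbouring pathways were read from lists. No gene of any of 6 lists passed limma's test at an adjusted p of 0.05 in any of the 7 comparisons. Of 19 measured genes of mitochondrial fatty acid oxidation, 16 were below 0 in the SHR collateral difference, whose median was -0.39, and 14 of 19 with a median of -0.30 without SHR collateral 3. At an unadjusted p under 0.05, 3 were lower and 0 higher, where 1.69% and 2.07% of all tested probe sets were, namely Acaa2 at -0.72 ± 0.32, Acadm at -1.55 ± 0.72 and Echs1 at -0.68 ± 0.28, which encode a thiolase, an acyl-CoA dehydrogenase and an enoyl-CoA hydratase (limma, adjusted p = 0.949 for each). These differences were -0.47, -0.63 and -0.52 without SHR collateral 3, where 0 genes of the list were at an unadjusted p under 0.05 in either direction. In WKY collateral arteries, too, 15 of the 19 genes were below 0, with a median of -0.19. As the mean of both strains 14 were below 0, with a median of -0.26, and -0.22 without SHR collateral 3.

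Of 17 measured genes of the citric acid cycle and pyruvate entry, 13 had a lower mean in SHR collateral arteries with a median of -0.25, and 6 with a median of 0.12 without SHR collateral 3. Between the strains, as the mean of both vessel types, the median over the 17 genes was -0.03 with 9 below 0. Without SHR collateral 3 it was 0.05 with 7 below 0. Of the list's 14 tested genes, 2 were lower in SHR and 0 higher at an unadjusted p under 0.05, where 5.13% and 6.73% of all tested probe sets were. Suclg1, a subunit of the succinyl-CoA ligase that acts just before Sdha in the cycle, was lower by a log2 difference of -0.94 ± 0.25 (limma, adjusted p = 0.0896), and Pdha1, of the pyruvate dehydrogenase complex, by -0.79 ± 0.26 (adjusted p = 0.205). Of 16 tested glycolysis genes, 3 were higher and 1 lower in SHR, against the same 6.73% and 5.13%, among them the pyruvate kinase Pkm at 0.70 ± 0.21 (adjusted p = 0.134). Over the 17 measured glycolysis genes the median strain difference was -0.10 with 10 below 0. Without SHR collateral 3 it was -0.08 with 9 below 0. Of the 19 fatty acid oxidation genes, 1 was higher and 1 lower in SHR, against the same 6.73% and 5.13%. Without SHR collateral 3 these were 1 and 0, against 6.91% and 5.25%. The higher one was the uncoupling protein Ucp2 at 0.87 ± 0.26 (limma, adjusted p = 0.145). The median strain difference of that list was -0.03 with 11 of 19 below 0.

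For adenine nucleotide and phosphate exchange, 10 genes were tested. At an unadjusted p under 0.05, 0 were higher and 1 lower in collateral arteries as the mean of both strains. Of all tested probe sets 2.53% and 2.58% were. The lower gene was Tspo at -0.49 ± 0.21. Between the strains, 0 were at such a p in both directions. Of all tested, 6.73% were higher and 5.13% lower in SHR as the mean of both vessel types. The 6 measured assembly factors and regulators of mitochondrial gene expression, of 28 listed, gave 0 in both directions in all 7 comparisons. Of 8 antioxidant and chaperone genes, 1 was higher and 0 lower in WKY collateral arteries at an unadjusted p under 0.05. Of all tested probe sets 1.75% and 1.41% were. The higher gene was Txnrd2 at 0.97 ± 0.37 (limma, adjusted p = 1.00).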

How the data were processed

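Signals were deposited by the authors, 1 never negative value per probe set and array, made with GCOS and MAS5, per the submitters' processing notes. No version of either is given in these sources. Trimmed means show that all arrays had been scaled alike. Signals below 1 (12 values) were set to 1 and taken to log2. Tests covered the 6512 of 8740 probe sets that reached the 40th percentile of signal on 3 or more arrays. limma 3.58.1 in R 4.3.3 estimated 4 group means from the 15 arrays together, with a variance trend and a two-sided moderated test (degrees of freedom: 11 residual, 7.19 prior). P-values of each of 7 comparisons were adjusted by Benjamini-Hochberg over all tested probe sets. The method was tested on simulated data. For SHR collateral against control arteries, 19.7% of log2 changes of 1 were recovered, 58.2% of 2 and 85.1% of 3. For SHR against WKY as the mean of both vessel types, these were 24.2%, 77.6% and 98.5%. False calls among unchanged probe sets were 5 and 6. Smaller changes were not simulated. That no member passed the adjusted test therefore does not show that members were unchanged. For arrays, their number limits the precision. Where 1 value per gene is given, it is from the probe set with the highest mean.

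Members and gene lists were chosen with earlier results of these data known. Named members were up to 4 per direction and comparison with the smallest p, the 2 brightest of each complex, tissue isoform pairs and Ndufs8, plus up to 3 genes per related list. Alternatives were other scalings, floors, filters, variance models, array weights, replicate blocks and each array left out. The median over tested members alone and, without SHR collateral 3, the overlap of groups and the counts for gene lists were added after seeing the data.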

Additional observations from a re-analysis of the deposited data

Results flagged for a closer look

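Values in groups of 4 arrays were checked for a single array far from the others, and chance marks about 1 in 20 such groups. The 123 groups checked were of the named members and of the arrays' median deviations, over all members and by complex. There were 3. Cox5b by D10952_i_at had a log2 signal of 4.10 on WKY collateral 3, with the next value at 8.35 and the highest at 9.10. Atp5po by D13127_g_at had 12.59 on SHR collateral 3, with the next value at 14.28 and the highest at 14.61. Cox8b by U40836mRNA_s_at had 10.18 on SHR collateral 3, with the next value at 8.56 and the lowest at 8.32.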

How the results depend on the processing

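The count of members at an adjusted p under 0.05 was 0 in all 7 comparisons under every alternative run. The 25 differences named for an unadjusted p under 0.05 kept their sign. That choice makes a change of sign less likely for them than for other members. Of the other named values, the collateral differences of Cox6a2 and Sdha turned sign without SHR collateral 3. The median change over all 101 member probe sets moved by more than the spread between replicates (SD 0.10) only with equal array medians, from 0.10 to -0.11 for SHR against WKY in collateral arteries, from 0.07 to -0.0477 as the mean of both vessel types, from -0.08 to -0.23 for SHR collateral against control arteries and from -0.01 to -0.17 for the strain difference in that change. With each array left out, these medians ranged from 0.04 to 0.12, from 0.03 to 0.10, from -0.14 to 0.01 and from -0.04 to 0.04. Over all probe sets, 58 called between the strains became 184 with array weights, 134 with a fixed replicate block, 38 with equal array medians, 34 without the variance trend and 30 to 101 with an array left out (101 without SHR control 4); 2 called in control arteries ranged from 0 to 14, and 0 in collateral arteries from 0 to 26. With each group centred on its mean, same-numbered control and collateral arrays of a strain correlated between -0.07 and 0.31. Differently numbered arrays were not set beside them, so this range cannot decide whether the numbers mark pairs. The labels do not say that they do, so the numbers were not taken as pairs. With the fixed replicate block the member median was -0.08 in SHR and -0.11 in WKY collateral against control arteries, and no member was called. With 1 probe set for each of the 55 genes, the SHR collateral median was -0.21, -0.01 without SHR collateral 3 and 0.02 with array weights. The number of arrays and the signal over background of dim members such as Ndufs1 limit the precision.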
